A study of Mus musculus with 6 samples.

Results

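Molecular chaperones and heat shock factors expressed in the testis were examined in Alkbh1 knockout mice. Of 10 genes chosen by name, 9 had a probe set listed under exactly that symbol in the platform annotation, and together they held 21 of the 45037 probe sets that are not controls. They comprised 7 chaperones known for their expression in male germ cells (Hspa2, Hspa1l, Hspa4l, Clgn, Calr3, Pdilt and Dnajb13), the general chaperone Hspa5 and the transcription factor Hsf2. Hsf1, the remaining name, was not analysed here. Whole testes came from 3 Alkbh1-/- mice (KO) and 3 wild-type mice (WT), all 12 weeks old, and each mouse gave 1 Affymetrix array. The background is given as C57/BL6 in one label field and as C53/BL6 in another. The labels do not say which part of Alkbh1 was deleted. All values are the deposited normalized log2 expression values.

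Chaperones bind proteins that are not yet folded and keep them from clumping. The HSP70 proteins do so in a cycle driven by ATP, in which J-domain proteins start ATP hydrolysis and exchange factors of the HSP110 type release the nucleotide. In the endoplasmic reticulum (ER), the lectin chaperones calnexin and calreticulin hold new glycoproteins by their sugar chains while disulfide isomerases form and shuffle disulfide bonds. Male germ cells express relatives of these proteins of their own, and mice that lack some of them are infertile. Heat shock factors bind heat shock elements in the promoters of chaperone genes, while ER stress acts on other elements.

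RefSeq promoter windows (GRCm38.p6), running from 250 bases before to 50 bases after the start site, were found for 8 of the 10 genes, Clgn and Hsf1 being without one in the table used. The windows of the general Hspa5 and of the testis Hspa2 are shown because these 2 HSP70 genes stand for the stress-regulated and the germ cell branch of the family and differ in the elements they hold. Capitals mark CCAAT boxes on either strand and, in Hspa5, the ER stress response element.
Hspa5, chr2:34771840-34772139, plus strand: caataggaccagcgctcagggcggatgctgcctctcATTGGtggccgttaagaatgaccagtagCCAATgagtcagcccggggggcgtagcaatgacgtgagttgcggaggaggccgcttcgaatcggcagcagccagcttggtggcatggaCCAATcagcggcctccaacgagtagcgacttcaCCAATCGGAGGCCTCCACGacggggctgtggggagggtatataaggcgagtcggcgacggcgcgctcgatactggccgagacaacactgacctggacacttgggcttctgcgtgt
Hspa2, chr12:76404120-76404419, plus strand: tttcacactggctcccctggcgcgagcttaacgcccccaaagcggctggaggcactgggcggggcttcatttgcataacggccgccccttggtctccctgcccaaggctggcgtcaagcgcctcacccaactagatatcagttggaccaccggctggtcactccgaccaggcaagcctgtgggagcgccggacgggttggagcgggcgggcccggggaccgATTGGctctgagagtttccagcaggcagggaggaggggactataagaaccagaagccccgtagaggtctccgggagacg

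The ER stress response element (CCAAT and CCACG with 9 bases of any kind between them, either strand) was found in 1 of the 8 genes, Hspa5, starting 65 bases before the start site, and in 0.13% of 27025 promoters searched. CCAAT itself, which is part of that element, was found on either strand in 7 of the 8 genes, Hspa4l being the exception, against 37.9% of all promoters. The simplest heat shock elements, GAANNTTC and TTCNNGAA, are each their own reverse complement. Neither was in any of the 8 genes, while 7.95% and 8.40% of all promoters held them. The cAMP response element TGACGTCA, through which CREM acts in spermatids, was likewise in none of the 8, against 1.88% of all promoters. TATAAA on either strand was in none, against 14.2%. These letters describe the windows only.

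The arrays were alike as a whole, with Pearson correlations from 0.989 to 0.996 across the 27022 probe sets tested. Alkbh1 itself was low in KO. Probe set 1434660_at of this gene read 5.76, 5.30 and 5.20 in KO, against 8.43, 8.65 and 8.72 in WT (limma adjusted p = 0.000582). Bright probe sets read lower on the array of WT replicate 1 than elsewhere. The 95th percentile of its values was 11.42, against 11.52 to 11.55 on the other 5 arrays. Among the 2742 tested probe sets at least as bright as the dimmest of the members' highest probe sets (a mean of 11.25 or more), WT replicate 1 had the lowest value in 65.3%, and the median KO minus WT difference was 0.035. The brightest probe set of each tested chaperone gene lies in that range by its definition, while several of their other probe sets are dimmer. The differences of the chaperones are given below with and without this array. The spiked-in controls were also lowest on it (mean 7.90) and were highest on WT replicate 2 (9.54), with 8.53 to 8.80 on the other arrays. Germ cell markers were present on every array: Prm1, which encodes a protamine of the sperm head, averaged 14.99 in KO and 14.97 in WT, near the top of the scale.

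No difference between KO and WT passed the test at any of the chaperone genes. Of the 21 probe sets, 19 passed the filter on level (the upper 60% by mean over all arrays), and 0 of the 19 passed the test across all probe sets (limma, Benjamini-Hochberg adjusted p from 0.993 to 0.999), with 0 also at an unadjusted p under 0.05. Over all probe sets 0.0407% passed, and 5.11% had an unadjusted p under 0.05. The largest difference among the 19 was 0.14 log2, at a probe set of Pdilt. On an array, the level of 1 probe set cannot be set against that of another, so the genes are not ranked by level, and germ cell and general chaperones are compared by their KO minus WT differences. In whole testis, fewer cells of a type and less RNA per cell cannot be told apart.

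The HSP70 branch of germ cells is represented by Hspa2 and Hspa1l. Hspa2 encodes the HSP70 of meiotic and later male germ cells, without which spermatocytes do not complete meiosis in mice. Its probe set 1417101_at read 13.32, 13.33 and 13.36 in KO, against 13.21, 13.25 and 13.33 in WT. The groups overlapped narrowly, since the highest WT value lay between the lowest 2 KO values. The means were 13.34 ± 0.019 in KO and 13.26 ± 0.062 in WT (SD, n = 3 each), a difference of 0.076 ± 0.047 (SE) with a 95% interval from −0.033 to 0.18. Without WT replicate 1 the difference was 0.047. On the linear scale the interval over all arrays runs from 0.977-fold to 1.14-fold. Hspa2 lies on chromosome 12, as does Alkbh1.

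Hspa1l encodes the spermatid HSP70 and lies on chromosome 17 beside the heat-inducible Hspa1a and Hspa1b. Its probe set 1419625_at read 13.00, 13.08 and 13.11 in KO, against 12.95, 13.06 and 13.09 in WT. The values of the 2 genotypes were interleaved, and the difference was 0.030 ± 0.055 (interval −0.097 to 0.16), or −0.012 without WT replicate 1.

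Hspa4l, also called Osp94 or Apg1, encodes an HSP110-type protein, and mice without it have reduced male fertility. It was read by 5 probe sets, which all had a higher mean in KO, by 0.017 to 0.13 log2, although 1449010_at stood at −0.0033 without WT replicate 1 and at −0.012 after quantile normalization. The brightest, 1418253_a_at, read 14.11, 14.11 and 14.15 in KO, against 13.98, 14.09 and 14.11 in WT, a difference of 0.056 ± 0.047. The groups overlapped, and WT replicate 1 stood lowest. Without it the difference was 0.015. At 1458385_at the 3 KO values (8.26, 8.22 and 8.29) lay above the 3 WT values (8.10, 8.19 and 8.16), with a difference of 0.10 ± 0.061 (limma adjusted p = 0.993), or 0.080 without WT replicate 1. Probe set 1429106_at spread most, with 9.23, 9.25 and 9.54 in KO, against 9.17, 9.10 and 9.36 in WT. Its difference of 0.13 ± 0.10 had an interval from −0.11 to 0.37, the widest of all 19, and was 0.11 without WT replicate 1 and 0.033 without KO replicate 3. The other 2 probe sets, 1449010_at and 1439093_at, overlapped between genotypes, and at 1439093_at the difference of 0.063 was 0.0043 without WT replicate 1.

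**Figure D1:**
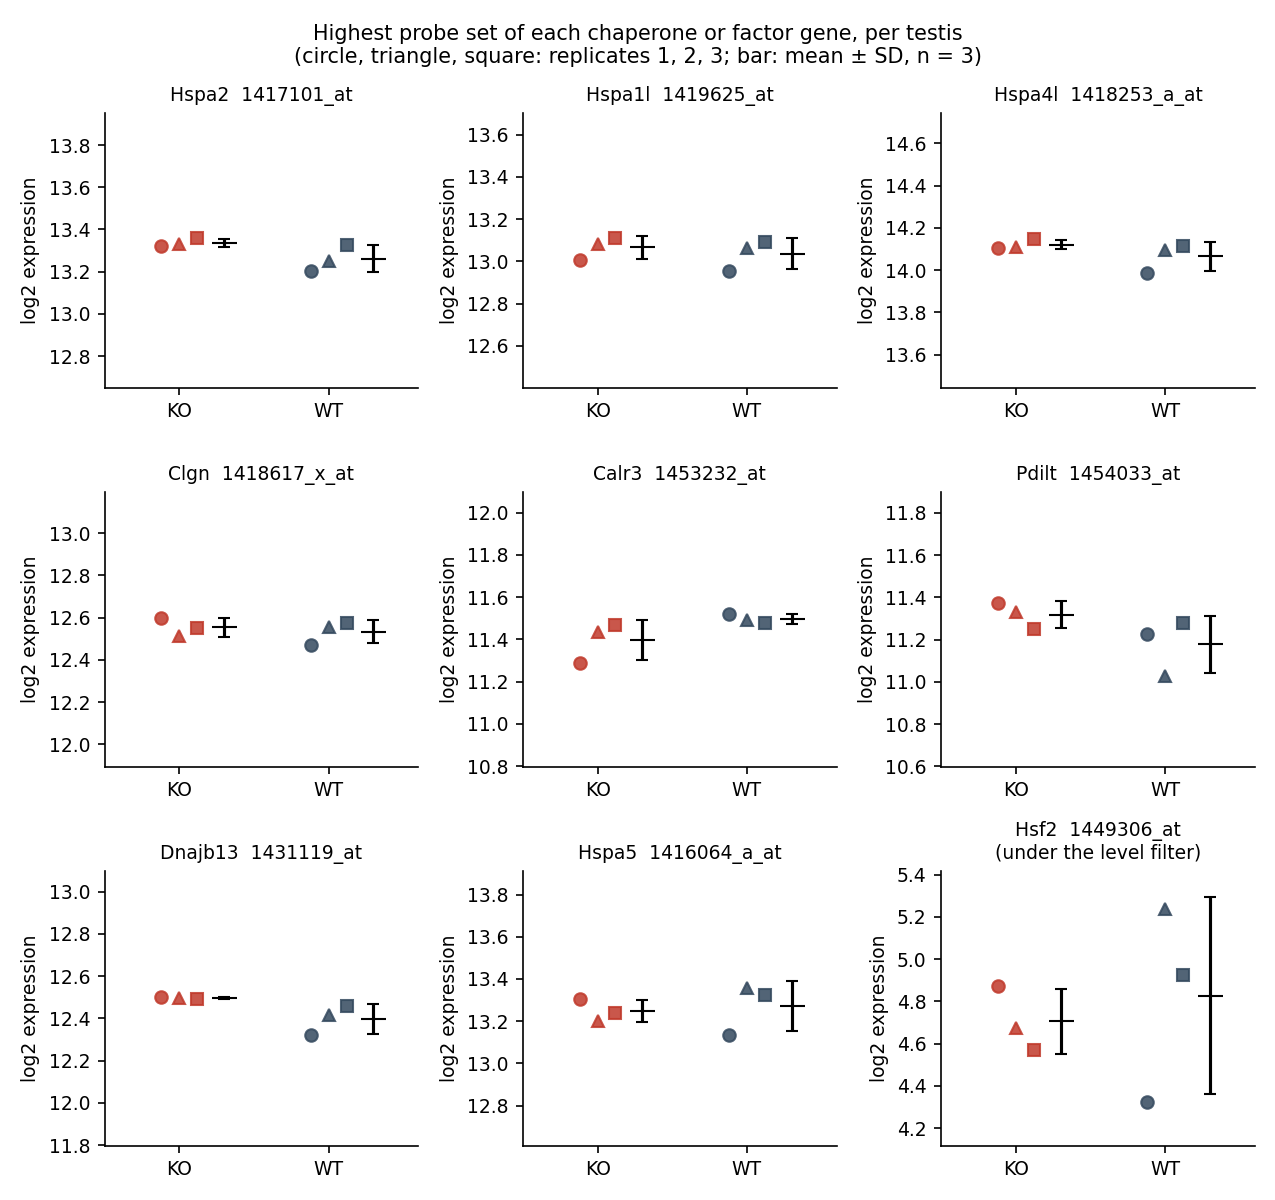
Normalized log2 expression (vertical axis, each panel 1.3 log2 units high) in the 3 KO and the 3 WT testes at the brightest probe set of each of the 9 genes, with the mean ± SD beside the points. KO and WT means lie within 0.14 log2 of each other in every panel, and Hsf2, with values from 4.32 to 5.24, varies most.

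The ER lectin chaperones of germ cells showed no common direction. Clgn encodes calmegin, a calnexin relative of spermatocytes and spermatids that in mice is needed for sperm to bind the egg coat. Its brightest probe set, 1418617_x_at, read 12.60, 12.51 and 12.55 in KO, against 12.47, 12.56 and 12.57 in WT. The other 2 read slightly lower in KO on average: 1430240_a_at had 12.19, 12.12 and 12.16 in KO, against 12.07, 12.23 and 12.26 in WT. Groups overlapped at all 3, and the differences of 0.020, −0.029 and −0.024 lie on both sides of 0. Without WT replicate 1 they were −0.011, −0.087 and −0.053. The suffix x marks probes that can also match other transcripts.

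Calr3 encodes calsperin, a calreticulin relative found in the testis that is needed in mice for the maturation of the sperm surface protein ADAM3. It was the only one of the 8 tested genes whose brightest probe set was lower in all 3 KO testes. That probe set, 1453232_at, read 11.29, 11.44 and 11.47 in KO, against 11.52, 11.49 and 11.48 in WT. The gap between the highest KO and the lowest WT value was small, and the difference was −0.099 ± 0.060 (interval −0.24 to 0.041, limma adjusted p = 0.993). It was −0.087 without WT replicate 1 and −0.045 without KO replicate 1, the lowest array. At 1453233_s_at the mean was also lower in KO, but KO and WT overlapped, with a difference of −0.057 ± 0.070 (−0.049 without WT replicate 1 and 0.0051 without KO replicate 1). At the dim 1431255_at the mean was higher in KO, by 0.094 ± 0.081 (0.14 without WT replicate 1).

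Pdilt encodes a testis relative of protein disulfide isomerase that acts together with calsperin and calmegin in mice. Probe set 1454033_at read 11.38, 11.33 and 11.25 in KO, against 11.23, 11.03 and 11.28 in WT. WT replicate 2 stood lowest, and the highest WT value lay above the lowest KO value. The difference of 0.14 ± 0.077 (interval −0.039 to 0.32) was the largest of the tested probe sets of all these genes. It was 0.17 without WT replicate 1 and 0.064 without WT replicate 2. The second probe set, 1431867_a_at, read 10.56, 10.50 and 10.50 in KO, against 10.40, 10.37 and 10.53 in WT, a difference of 0.085 ± 0.062 (0.067 without WT replicate 1).

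Dnajb13 encodes a J-domain protein that is a component of the radial spokes of the sperm tail. Its probe set 1431119_at read 12.50, 12.50 and 12.49 in KO, against 12.32, 12.42 and 12.46 in WT. The 3 KO testes were nearly equal and lay above all 3 WT testes, of which WT replicate 1 was lowest. The means were 12.50 ± 0.0039 in KO and 12.40 ± 0.071 in WT (SD, n = 3 each), a difference of 0.098 ± 0.051 (interval −0.019 to 0.22). Without WT replicate 1 the difference was 0.060. Dnajb13 had the smallest p of the 19 probe sets, at 0.089 before and 0.993 after adjustment (limma). Over the 19 probe sets, 2 lay higher in all KO testes and 1 lower. Groups did not overlap at 11.0% of all tested probe sets, of which KO was higher at 7.12% and lower at 3.84%, so the 3 of 19 are close to the background.

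The general chaperone Hspa5, also called BiP or GRP78, is the HSP70 of the ER and a standard target of the unfolded protein response. Probe set 1416064_a_at read 13.31, 13.20 and 13.24 in KO, against 13.14, 13.36 and 13.33 in WT. The KO values all fell inside the range of the WT values. The difference was −0.023 ± 0.066 (interval −0.18 to 0.13). At the other 2 probe sets, 1427464_s_at and 1447824_x_at, the differences were 0.012 ± 0.074 and −0.015 ± 0.072. WT replicate 1 was the lowest array at all 3, and without it the differences were −0.091, −0.052 and −0.084.

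Hsf2 encodes a heat shock factor that is active in spermatogenesis without heat. Both of its probe sets lay under the filter on level and were not tested. Probe set 1449306_at read 4.87, 4.67 and 4.57 in KO, against 4.32, 5.24 and 4.92 in WT, so that the WT values surrounded those of KO. At 1444436_at the values were 4.19, 4.13 and 4.16 in KO, against 4.28, 4.47 and 4.27 in WT. All KO values were lower there, which held for 4.76% of the 18015 probe sets under the filter. With no filter the difference was −0.19 ± 0.080 (limma adjusted p = 0.998). Without detection calls, values this close to the lower end of the scale cannot be told from background.

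**Figure D2:**
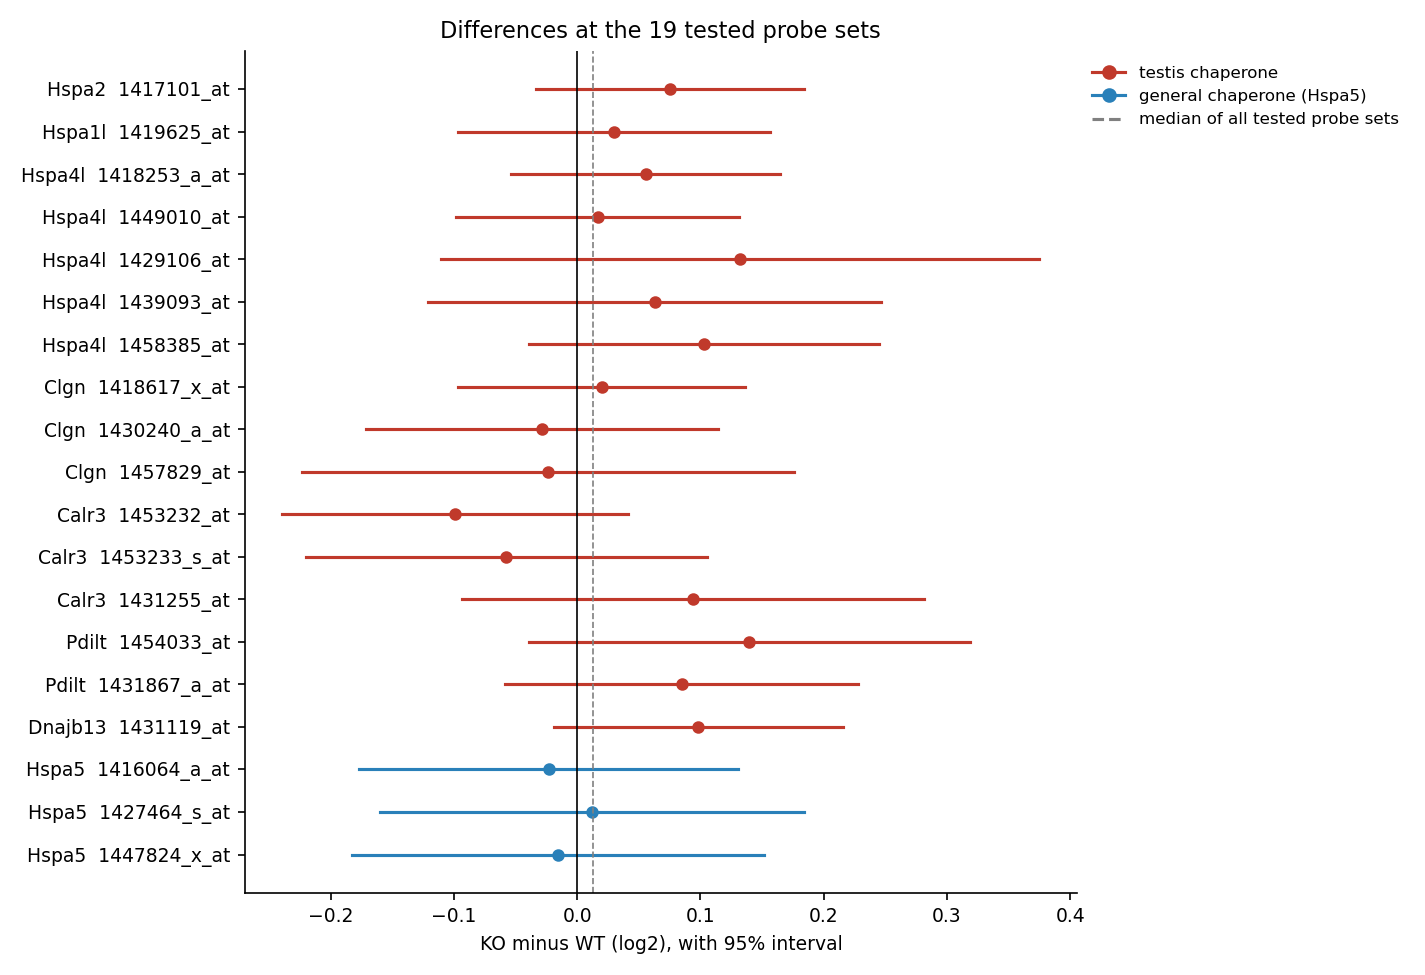
KO minus WT difference in log2 expression (points) with its 95% interval (lines, from limma) at each of the 19 tested probe sets, with the dashed line at the median of all tested probe sets (0.013). Every interval includes 0, and the differences run from −0.099 (Calr3) to 0.14 (Pdilt).

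The split of the small differences into higher and lower changed when 1 WT array was left out. Of the 19 probe sets 13 (68.4%) had a higher mean in KO, against 56.4% of all tested probe sets, with medians of 0.030 and 0.013. Among the 2742 bright tested probe sets (a mean of 11.25 or more) the share was 74.6%, with a median of 0.035. Not all of the 19 reach that level. WT replicate 1 was the lowest of the 6 arrays at 12 of the 19 and at 32.7% of all tested probe sets. Without it, 9 of the 19 were higher in KO with a median of −0.0033, against 50.6% of all probe sets. After quantile normalization of the deposited values, which gives every array the same distribution, the count was also 9, with a median of −0.0051, against 49.6%. KO replicates 1 and 3 were each the highest array at 7 of the 19 probe sets, and KO replicate 2 at 0.

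**Figure D3:**
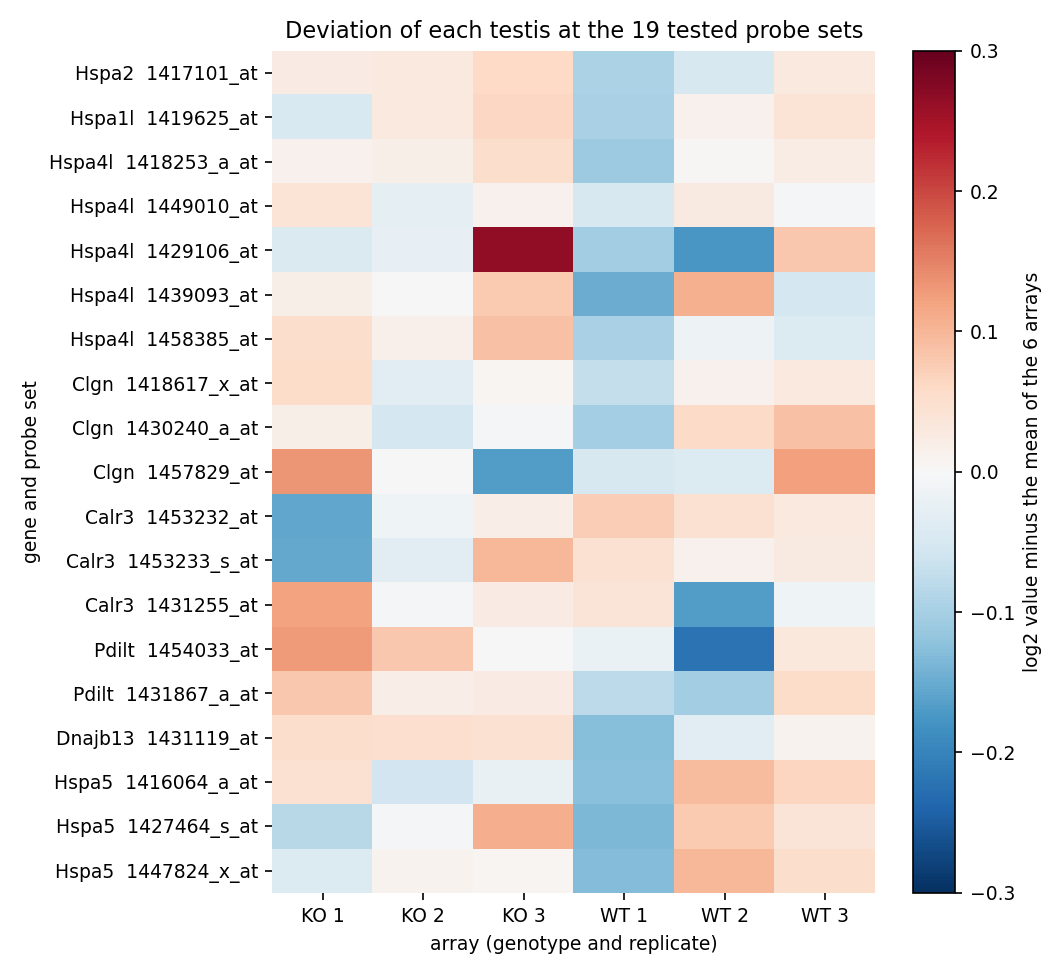
Deviation of each array (columns, KO replicates left, WT replicates right) from the mean of the 6 arrays, in log2 units (colour), at the 19 tested probe sets (rows). The column of WT replicate 1 is low (blue) at most probe sets, among them all 3 of Hspa5, while Calr3 is low in KO replicate 1 at its 2 brightest.

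The germ cell chaperones were set beside general relatives of the same family by their KO minus WT differences. Beside the 0.076 of Hspa2, Hspa8, the constitutive cytosolic HSP70, read 11.99, 11.94 and 11.93 in KO, against 12.01, 11.95 and 11.93 in WT, a difference of −0.0083 ± 0.049. Beside the 0.030 of Hspa1l, its heat-inducible neighbour Hspa1a read 7.47, 7.49 and 7.51 in KO, against 7.33, 7.44 and 7.30 in WT. All 3 KO values were higher, by 0.14 ± 0.067 on average (limma adjusted p = 0.993). The near-identical Hspa1b, whose probes can share RNA with Hspa1a, had differences of 0.015, −0.082 and −0.11 over its 3 probe sets and so did not share that direction throughout. Hspa4l stood at 0.056 and its general relative Hspa4 at 0.011 ± 0.057.

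Among the ER proteins, Clgn stood at 0.020, and Canx (calnexin) read 11.53, 11.59 and 11.48 in KO, against 11.52, 11.31 and 11.40 in WT, a difference of 0.12 ± 0.066. Calr3 differed by −0.099 and its general relative Calr (calreticulin) by 0.034 ± 0.055. Pdilt stood at 0.14 and P4hb, the disulfide isomerase of most tissues, at −0.024 ± 0.074. Dnajb13 stood at 0.098 and Dnajb1, the heat-inducible J-protein, at 0.046 ± 0.048. Of the 7 germ cell chaperones 6 had a higher mean in KO (median 0.056), as had 6 of the 8 general relatives (median 0.024). The share was 55.9% for all 13897 genes (median 0.012) and 74.6% for the 2742 bright probe sets (median 0.035). Hspa1a, Hspa1b and P4hb are dimmer than that bright range. After quantile normalization the counts higher in KO were 4 of 7 (median 0.020) and 4 of 8 (0.0013). Without WT replicate 1 they were 4 of 7 (0.015) and 6 of 8 (0.020). None of the 15 passed the test, and the 95% intervals of each gene and its relative overlapped.

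**Figure D4:**
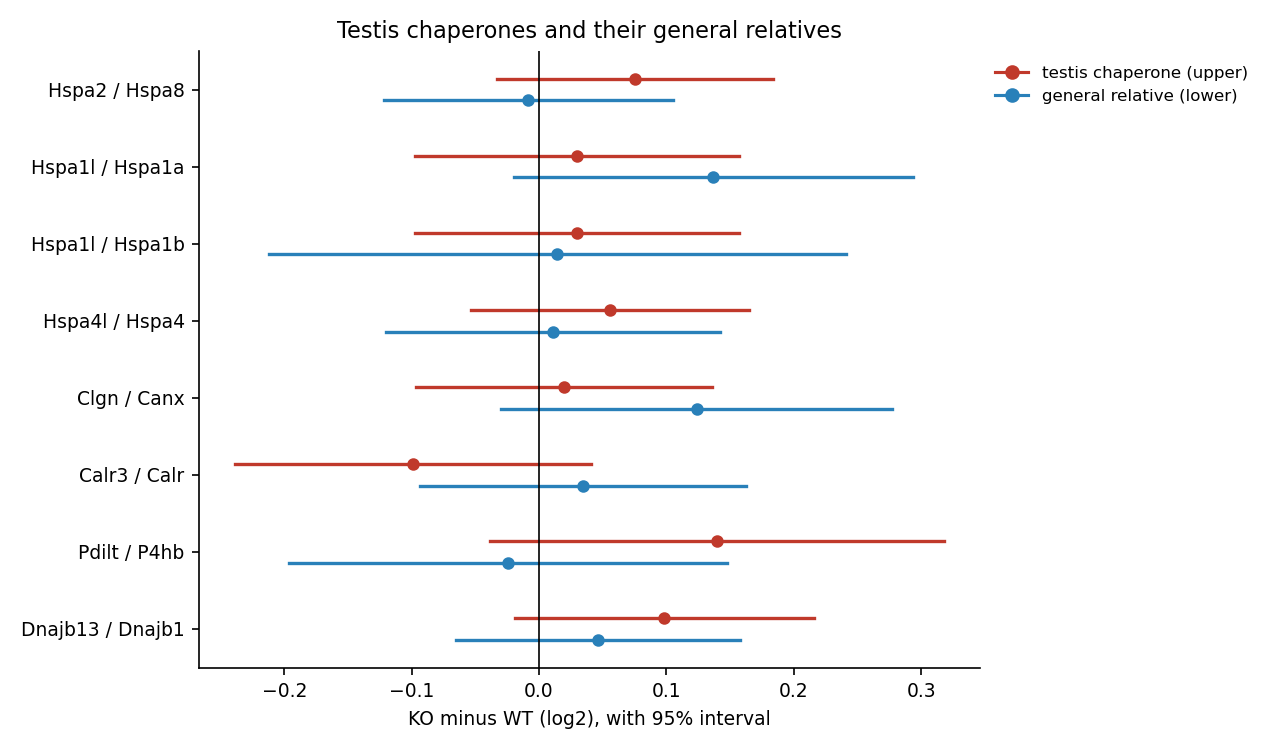
KO minus WT difference in log2 expression with its 95% interval for each germ cell chaperone (upper, red) and its general relative (lower, blue), at the brightest probe set of each gene. All intervals include 0, and those of each pair overlap, also for Calr3 and Calr (−0.099 and 0.034) and for Pdilt and P4hb (0.14 and −0.024).

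The wider chaperone network was described by 13 lists holding 202 genes, of which 180 were measured above the filter. Of these 180 genes 0 passed the test (limma, smallest adjusted p 0.863), and 8 (4.44%) had an unadjusted p under 0.05, against 5.51% of all genes. Groups did not overlap for 25 (13.9%), against 12.2% of all genes. The mean was higher in KO for 115 (63.9%), against 55.9% of all genes and 74.6% of the 2742 bright probe sets. Many of the 180 genes are dimmer than those probe sets, so the last share is not matched to them by level. The mean was higher in KO for only 79 (43.9%) without WT replicate 1 and for 80 (44.4%) after quantile normalization. By family, the median difference was 0.022 for the 14 HSP70 genes, 0.026 for 20 HSP90 and co-chaperone genes, 0.028 for 44 J-protein genes, 0.017 for 17 chaperonin and prefoldin genes and 0.0087 for 8 small heat shock proteins. For 33 ER folding genes it was −0.021, with 20 lower and 13 higher. The ER folding median was also below 0 without WT replicate 1 (−0.026) and after quantile normalization (−0.030). The medians of the J-proteins and chaperonins were −0.0053 and −0.015 without WT replicate 1, and those of the HSP70 genes and the HSP90 group were 0.0016 and 0.0062. After quantile normalization the medians of the chaperonins, the HSP90 group and the small heat shock proteins were −0.016, −0.00042 and −0.029.

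Among single members of these lists with small p, those of the HSP90 and HSP70 groups are given first. Fkbp4, an HSP90 co-chaperone of steroid receptors, read 12.58, 12.57 and 12.55 in KO, against 12.48, 12.40 and 12.48 in WT, a difference of 0.12 ± 0.046 (limma adjusted p = 0.932). Its KO and WT values did not overlap. Bag5, which encodes an exchange factor of HSP70, and Bag6 differed by 0.095 ± 0.042 and 0.10 ± 0.052. Bag6 is known to keep the HSPA2 protein stable in mouse germ cells, and Nasp, a histone chaperone that binds HSPA2, differed by 0.11 ± 0.046 (limma adjusted p = 0.965). Both were higher in all 3 KO testes than in any WT testis. Of the 8 measured partners of HSPA2, 5 were higher in KO and 2 lower, with a median of 0.021 that became −0.037 without WT replicate 1 and −0.0040 after quantile normalization.

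In the ER folding list no gene had an unadjusted p under 0.05 (limma, smallest adjusted p 0.993). Groups did not overlap for 4 of its 33 genes (12.1%), against 12.2% of all genes when both directions are counted. All 4 were lower in KO, which held for 589 of all 13897 genes and for 3.84% of all tested probe sets. In that direction alone the share of the list was therefore above the background, and no set test was made. Besides Calr3 they were Tmx3 and Tmx1, which encode thioredoxin-related membrane proteins of the ER, and Dnajb11, which encodes a J-protein that works with BiP. Tmx1 and Dnajb11 were singled out after their values were seen. Tmx3 read 7.74, 7.65 and 7.71 in KO, against 7.81, 7.81 and 7.83 in WT, a difference of −0.12 ± 0.062. Tmx1 stood at −0.074 ± 0.052 and Dnajb11 at −0.065 ± 0.050.

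Among J-proteins, Dnajc9, a histone chaperone of dividing cells, differed by 0.15 ± 0.059 (limma adjusted p = 0.936) and the testis gene Dnajb3 by 0.092 ± 0.044. The chaperonin subunit gene Cct2 read 13.16, 13.12 and 13.10 in KO, against 12.99, 13.02 and 13.05 in WT (0.11 ± 0.042). These 3 genes were higher in every KO testis. Vbp1, a prefoldin subunit gene, stood at −0.17 ± 0.11, with overlapping groups, at −0.28 without WT replicate 1 and at −0.078 without WT replicate 2. Of the small heat shock proteins, Hspb7 was the gene with the smallest p in all 13 lists. It read 7.97, 8.07 and 8.09 in KO, against 8.73, 8.20 and 8.59 in WT, a difference of −0.46 ± 0.13 (limma adjusted p = 0.863), with all KO values lower. Hspb7 is best known from heart and skeletal muscle.

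**Figure D5:**
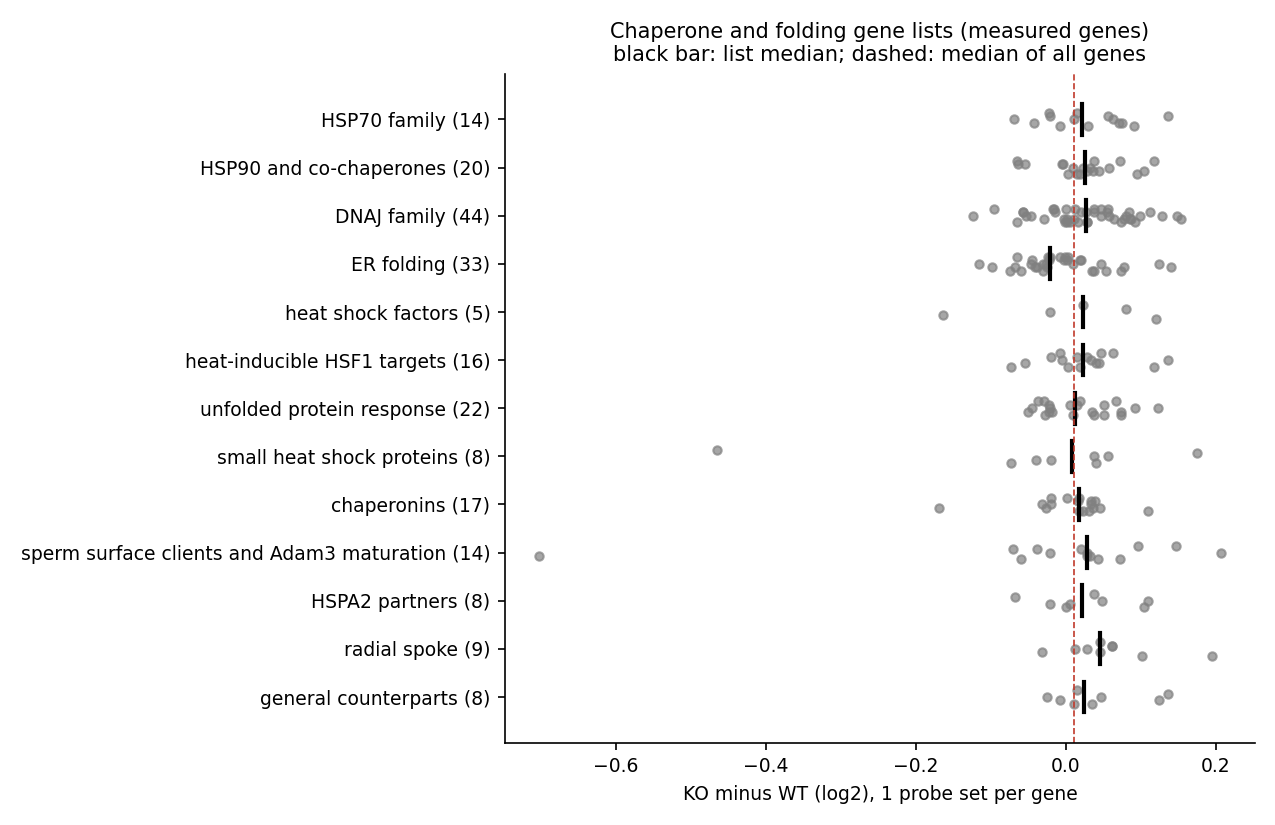
KO minus WT difference in log2 expression (horizontal axis) of each measured gene in 13 lists (points, 1 probe set per gene, number of genes in brackets), with the list median as a black bar and the median of all genes (0.012) as a dashed line. List medians lie between −0.021 and 0.045, and the 2 points farthest left are Rnase10 (−0.70) and Hspb7 (−0.46).

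Readouts of the 2 stress pathways were close to 0. For 16 heat-inducible targets of HSF1 the median difference was 0.024, with 11 higher and 5 lower, and for 22 genes of the unfolded protein response it was 0.012, with 13 higher and 9 lower. Without WT replicate 1 the medians were 0.016 and −0.0090, and after quantile normalization 0.0014 and −0.0071. In the first list Fkbp4 and Hspa1a, given above, had the smallest p, with differences of 0.12 and 0.14. Groups did not overlap for 2 of the 16 (12.5%), both higher in KO, against 7.12% of all tested probe sets in that direction. Next by p was Hspb1, a small heat shock protein induced by heat, at −0.073 ± 0.061. Creld2, an ER stress gene, had the smallest p of the second list, at 0.12 ± 0.056 (limma adjusted p = 0.984). Of heat shock factors and their binding proteins 5 were measured. Hsbp1, which encodes a protein that binds heat shock factors and dampens HSF1, read 13.61, 13.65 and 13.66 in KO, against 13.48, 13.50 and 13.59 in WT. The groups did not overlap, and the difference was 0.12 ± 0.046 (limma adjusted p = 0.918). Hsf5, a factor of male meiosis, stood at 0.080 ± 0.060 (0.023 without WT replicate 1) and Hsbp1l1 at −0.16 ± 0.096 (−0.26). The remaining 2, Hsfy2 and Hsf2bp, stood at 0.023 and −0.021.

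Genes linked to the germ cell chaperones were read too, not all of them encoding proteins that depend on these chaperones. ADAM3 needs calmegin, calsperin and PDILT to reach the sperm surface in mice. Its gene Adam3, picked for that role after the values were seen, read 13.46, 13.43 and 13.50 in KO, against 13.30, 13.49 and 13.54 in WT. The groups overlapped, with WT replicate 1 lowest, at a difference of 0.020 ± 0.065. The difference of Adam3 without that array is not given here. The list of sperm surface and ADAM3 maturation genes had 9 higher and 5 lower of 14 (median 0.028), and 7 of each both without WT replicate 1 and after quantile normalization. Rnase10, an epididymal gene, had the largest difference in it, −0.70 ± 0.24, with 7.91, 7.02 and 7.10 in KO, against 7.78, 8.32 and 8.03 in WT (limma adjusted p = 0.869). Ces5a, another gene of the epididymis, read 9.46, 9.89 and 9.37 in KO, against 9.37, 9.35 and 9.37 in WT. Its difference of 0.21 ± 0.13 was 0.050 without KO replicate 2. On that array the means of the epididymis and adipose markers described below were also highest, but Rnase10 was lowest (7.02). The cause was not tested. For the radial spoke, of which DNAJB13 is a part, 8 of 9 measured genes had a higher mean in KO (median 0.045). This stands beside 55.9% of all genes and 74.6% of the 2742 bright probe sets, a level that not all of the 9 reach. The count was 6 of 9 genes both without WT replicate 1 (0.012) and after quantile normalization (0.018). Dydc1 had the largest difference of these, 0.19 ± 0.083, with 10.75, 10.76 and 10.82 in KO, against 10.41, 10.62 and 10.72 in WT, and stood at 0.11 without WT replicate 1.

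Over the 6 arrays the members varied in part together, as a description of 6 points that share a normalization and the low array of WT replicate 1. At their brightest probe sets, Hspa2 and Dnajb13 had a Pearson r of 0.94, Hspa2 and Hspa4l 0.91, and Hspa4l and Dnajb13 0.91. Clgn was closest to Hspa5 (0.86). Calr3 ran against most others, with r from −0.65 (Clgn) to 0.11 (Hspa1l). Among 179 other genes of the lists, the one most like both Hspa2 and Dnajb13 was Dydc1 (r = 0.97 and 0.98). For Hspa1l it was Ddit3 (0.98), for Hspa4l Ropn1l (0.98), for Clgn Sycp1 (0.98), for Pdilt Odf1 (0.95), for Hspa5 Sel1l (0.94) and for Calr3 Dnajb11 (0.79).

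Markers of the cell types in the tissue were read on the same arrays, and single ones differed from −0.33 (Star, of Leydig cells) to 1.16 (Fabp4, of adipose tissue). Round spermatid markers were higher in KO for 8 of 9 genes (median 0.066), with a mean level from 12.27 to 12.33 in KO and from 12.16 to 12.26 in WT. Elongating spermatid markers were higher for 9 of 9 (median 0.049), from 14.50 to 14.52 in KO and from 14.45 to 14.51 in WT. Pachytene spermatocyte markers were higher for 6 of 8 (median 0.034), from 12.38 to 12.44 in KO and from 12.26 to 12.44 in WT. Sertoli cell markers were lower for 9 of 11 (median −0.080), from 9.58 to 9.62 in KO and from 9.66 to 9.68 in WT. Counts higher in KO were 2 of 4 for Leydig cells, 2 of 5 for peritubular myoid cells and 3 of 8 for spermatogonia. They were 4 of 5 for macrophages and 2 of 3 for endothelium. The share higher in KO was 55.9% of all genes and 74.6% of the 2742 bright probe sets. Most Sertoli cell markers are dimmer than that bright range, while all measured spermatid and pachytene spermatocyte markers lie in it. Of epididymis markers 2 of 7 were above the filter. The mean of these 2 was 5.94, 7.43 and 5.94 in KO, against 6.91, 5.81 and 6.06 in WT, and it was highest in KO replicate 2. Spink8 carried this, with 6.01, 8.81 and 5.90 in KO, against 7.81, 5.47 and 5.99 in WT. Lcn8, the other, read 5.88, 6.04 and 5.98 in KO, against 6.02, 6.15 and 6.12 in WT. Of adipose markers 3 of 6 were above the filter, and their mean was 7.65, 8.94 and 7.71 in KO, against 7.34, 7.25 and 8.23 in WT. Without WT replicate 1 the counts higher in KO were 9 of 9 for round spermatids, 7 of 9 for elongating spermatids, 3 of 8 for pachytene spermatocytes and 1 of 11 for Sertoli cells. After quantile normalization they were 7 of 9 for round spermatids, 4 of 9 for elongating spermatids, with 4 lower and 1 at 0, then 4 of 8 for pachytene spermatocytes and 1 of 11 for Sertoli cells. The part of cell makeup in the chaperone differences was not tested.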

How the data were processed

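The authors deposited normalized log2 expression values for 45101 probe sets on 6 arrays. The submitters' processing notes name GCOS 1.4. How background was corrected, probes were summarised and arrays were normalized is not stated in these notes or labels. Their scale was taken as log2 from the range of the values (2.61 to 15.00, array medians 6.62 to 6.64). No detection calls were used, which leaves the signal over background unknown, and the number of arrays limits the precision (median standard error 0.082).

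Grouping followed the genotype in the sample titles, which also number the mice as biological replicates. After removal of 64 control probe sets, the upper 60% by mean level (27022 probe sets, lowest mean 6.02) were tested by limma 3.58.1 in R 4.3.3, using lmFit and then eBayes, whose prior followed the intensity. Tests were two-sided, and p-values were adjusted after Benjamini-Hochberg over all of these probe sets at 0.05. Intervals are 95% intervals from that fit. Gene names came from the platform annotation, where 34958 probe sets name 1 gene and 932 several, and those of the lists were updated through gene ids with RefSeq (99.4% matched). A gene in a list is read by its tested probe set with the highest mean. Named genes were all chaperone and factor genes above, their general relatives, and up to 3 genes per list with the smallest p. Others were picked for their role after the values were seen. The members and lists were chosen with earlier results of these data known. No set test was made. The fit was tested on simulated data. The main fit did not pair samples by replicate number. Correlations of same-numbered deviations were 0.22, −0.024 and 0.096. Differently numbered arrays were not compared, so these values cannot settle whether the numbers pair the mice. Figures were drawn with matplotlib 3.10.9.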

Additional observations from a re-analysis of the deposited data

How the results depend on the processing

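None of the 9 chosen genes passed under any of the 15 alternatives tried, whose smallest adjusted p at one of their tested probe sets was 0.473 (limma). Hsf2 was tested only in the alternative with no level filter. Among the general relatives and the list genes named for their small p, the smallest was 0.153, at Hspb7. Other named genes, such as Tmx1, Dnajb11, Adam3, Hsfy2 and Hsf2bp, were not followed singly through the alternatives. The differences at the brightest probe sets of Hspa2, Hspa4l, Pdilt and Dnajb13 stayed above 0 and that of Calr3 below 0 throughout. In that order they ran at 0.0094 to 0.11, 0.0055 to 0.081, 0.038 to 0.19, 0.038 to 0.13 and −0.13 to −0.021. These ranges include the alternative that takes a gene's mean over its probe sets. The −0.021 of Calr3 is that mean, and its brightest probe set alone came to −0.045 without KO replicate 1. The count of all probe sets called, 11, became 7 with the upper 40% by level and 2 without WT replicates 1 and 2, and ran from 2 to 12 when single arrays were left out. With the replicate number as a block it was 9, and the block changed no call among these genes. A gene's mean over probe sets gave no count of probe sets.

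Some differences changed sign, none of them past the threshold, and the cause was not tested. Not all were near 0, since Hspa4l 1429106_at and Pdilt 1431867_a_at stood at 0.13 and 0.085 over all arrays. Quantile normalization gave −0.0051 for Hspa1l, −0.012 for Hspa4l 1449010_at, −0.012 for Clgn 1418617_x_at, −0.022 for Hspa5 1427464_s_at, −0.0042 for Odf1, −0.018 for Hspa4 and −0.0024 for Calr, and median centring gave −0.00039 for Hspa4. Without WT replicates 1 and 2 (the lone WT array is then assumed to vary like the KO group) Hspa1l stood at −0.026, Hspa4l 1429106_at at −0.014, Clgn 1418617_x_at at −0.020, Pdilt 1431867_a_at at −0.012, Hspa5 1427464_s_at at −0.033, Hspa8 at 0.027 and P4hb at 0.064. The mean over a gene's probe sets was −0.011 for Clgn and −0.058 for Hspa1b. Leaving out single arrays gave −0.012 to 0.061 for Hspa1l, −0.0033 to 0.036 for Hspa4l 1449010_at, −0.011 to 0.041, −0.087 to 0.0081 and −0.095 to 0.054 for Clgn 1418617_x_at, 1430240_a_at and 1457829_at, and −0.12 to 0.0051 for Calr3 1453233_s_at. It gave −0.091 to 0.019, −0.052 to 0.057 and −0.084 to 0.030 for Hspa5 1416064_a_at, 1427464_s_at and 1447824_x_at, −0.026 to 0.018 for Hspa8, −0.081 to 0.11 for Hspa1b, −0.039 to 0.056 for Hspa4 and −0.069 to 0.044 for P4hb.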
